A study of Rattus norvegicus with 18 samples.

Results

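HES1 and 9 other genes of the Notch pathway (HEY1, HEY2, HEYL, NRARP, JAG1, DLL4, NOTCH1, NOTCH2 and RBPJ) were followed in neonatal rat ventricular cardiomyocytes after a short exposure to blebbistatin. The 10 genes were taken by name from a deposited expression table of 28909 genes, and each had a row. Names are given as the table spells them. The choice was made with values of the same comparison already seen, HES1 being among the genes whose libraries did not overlap between the treatments. Values of these 10 genes are therefore a description and carry no p-value. The RNA libraries fall into a blebbistatin group (25 µM, 0.5 h, 3 libraries) and a DMSO group (the solvent, 0.5 h, 3 libraries). Blebbistatin blocks the ATPase of myosin II motors, so it stops contraction and lowers actomyosin tension. All cells came from ventricles of 1-day-old wild-type SD (Sprague-Dawley) rats, were pre-plated to remove faster-attaching cells and were kept in low-serum medium. The design text of the series gives the dose as 25 µM in one place and as 0.25 µM in another. Whether the replicates are separate isolations of cells is not stated in the labels, so every SD, SE and p-value here covers the variation among these 6 libraries, which may be technical. The 6 H3K9me3 samples and 6 inputs of the 18 samples are not analysed here.

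Notch signalling passes between touching cells. A ligand such as Jag1 or Dll4 on one cell binds a Notch receptor on its neighbour, the pull on the receptor exposes a cleavage site, and the freed intracellular domain enters the nucleus. There it joins the DNA-binding protein Rbpj and switches on target genes, of which the repressors of the Hes and Hey families are the best known. In the heart the pathway takes part in trabeculation, valve and vessel formation and the proliferation of immature cardiomyocytes. Hes1 mRNA and protein are short-lived, Hes1 represses its own gene through N boxes, and Hes1 also responds to serum and to other signals than Notch.

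The 250 bases before the annotated start of 3 target genes are shown because all 3 are known Notch targets and, of these, the libraries of the 2 treatments were separate for HES1 and overlapped for HEY2 and NRARP. HEYL, a target whose libraries also overlapped, had a sequence that is not shown. Whether motifs go with the differences between treatments was not tested. The sequences are from RefSeq (rat assembly GRCr8, a newer build than the rn6 named in the submitters' processing notes), run 5′ to 3′ on the gene's strand and end at the base before the start. Capitals mark the RBPJ core TGGGAA and the N box CACNAG, each searched on both strands, the N box being the element bound by Hes proteins.
HES1 (chr11:84213046-84213295, minus strand): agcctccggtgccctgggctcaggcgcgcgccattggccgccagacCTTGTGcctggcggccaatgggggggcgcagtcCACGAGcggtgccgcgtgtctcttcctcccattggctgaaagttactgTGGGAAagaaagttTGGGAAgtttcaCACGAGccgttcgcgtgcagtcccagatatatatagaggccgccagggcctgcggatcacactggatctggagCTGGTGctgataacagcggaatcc
HEY2 (chr1:28640850-28641099, plus strand): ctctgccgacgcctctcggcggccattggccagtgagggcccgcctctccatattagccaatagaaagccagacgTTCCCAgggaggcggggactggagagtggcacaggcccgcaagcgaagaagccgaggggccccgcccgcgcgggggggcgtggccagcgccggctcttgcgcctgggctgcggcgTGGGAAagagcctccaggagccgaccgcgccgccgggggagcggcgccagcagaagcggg
NRARP (chr3:28390495-28390744, plus strand): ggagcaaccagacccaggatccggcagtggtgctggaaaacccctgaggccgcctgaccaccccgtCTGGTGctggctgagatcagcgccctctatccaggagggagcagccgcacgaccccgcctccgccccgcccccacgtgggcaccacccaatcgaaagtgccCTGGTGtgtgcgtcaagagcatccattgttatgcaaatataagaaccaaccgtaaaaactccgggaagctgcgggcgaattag

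The HES1 window held 2 RBPJ cores on the gene's strand, at 123 to 118 and 109 to 104 bases before the start, and 4 N boxes. The first core is part of the longer form GTGGGAA, and an N box lies between the second core and the start, at 97 to 92 bases. The HEY2 window also held 2 RBPJ cores, at 175 to 170 (on the other strand) and 60 to 55 bases, that at 60 to 55 also part of GTGGGAA, and 0 N boxes. The NRARP window held 0 RBPJ cores, 2 N boxes and 1 E box (CACGTG). Among the other members with a sequence, RBPJ had 1 core in one annotated start's window and 2 in the other, NOTCH1 had 4 N boxes, 2 of which overlap, and HEYL, JAG1 and NOTCH2 had neither motif. Of 33469 annotated promoter windows of the same length, 22.1% held at least 1 RBPJ core on either strand and 2.71% at least 2, 5.27% held GTGGGAA, 37.2% at least 1 N box and 5.59% an E box. The CArG box, bound by SRF, was in 1.497% of all windows and in 0 of the 9 windows of the 8 members that had a sequence. A match in these letters is a description of the window, not a binding site. DLL4 and HEY1 are named only.

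Levels are in CPM, in which the authors scaled every library to the same total. They moved in steps of 0.0158 to 0.0168 CPM, and how many reads a step stands for is not known. HES1 rested on 2873 to 3548 steps with blebbistatin and 805 to 1813 with DMSO, and DLL4 on 12 to 38 and 10 to 50. The first principal component, with 42.0% of the variance, placed DMSO replicate 1 at -77.4 and the remaining 5 libraries at -3.04 to 34.6. Values of the members that passed the filter are therefore also given without that library. Listed cardiomyocyte markers summed to 23651 to 25761 CPM with blebbistatin and 23829 to 28492 CPM with DMSO. Markers of other cells were present too, with sums of 33568 to 38052 and 33515 to 38994 CPM for 9 fibroblast genes, 121 to 130.1 and 128 to 129.9 CPM for 11 endothelial genes and 5329 to 5904 and 4626 to 6000 CPM for 9 mural cell genes. The mural sum rested largely on ACTA2 (1948 to 3136 CPM over the 6 libraries) and TAGLN (857 to 1766 CPM). The other mural genes were lower, and RGS5, the lowest by group mean, was at 2.603 to 3.715 CPM. The cardiomyocyte sum rested largely on MYH7 (11154 to 19643.5 CPM over the 6 libraries) and the fibroblast sum on COL1A1 (18795 to 24452 CPM). The cardiomyocyte, fibroblast and mural sums therefore do not give the share of those cells. No marker in these lists was at 0 in all libraries. Notch1, Dll4 and the Hey genes are known from endothelial cells and Notch3 from mural cells, and the table does not say which cells of the culture the reads came from. In such bulk samples, fewer cells of a type and less RNA per cell cannot be told apart.

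HES1, the basic helix-loop-helix repressor and direct Notch target, was higher in all 3 blebbistatin libraries than in all 3 DMSO libraries. It was at 57.0, 45.4 and 57.5 CPM with blebbistatin and at 13.3, 29.3 and 29.4 CPM with DMSO, so that the lowest treated library stood well above the highest control. The means were 52.6 ± 6.10 CPM with blebbistatin and 24.0 ± 8.37 CPM with DMSO (SD of TMM-scaled CPM, n = 3 each), a log2 fold change of 1.19 ± 0.28 (SE), or 2.28-fold. Of 15204 genes tested, 149 had a larger positive log2 fold change. DMSO replicates 2 and 3 differed by little, and the spread of the control group came from replicate 1. Without DMSO replicate 1 the means were 53.3 CPM with blebbistatin and 29.3 CPM with DMSO, and the log2 fold change was 0.86 ± 0.13. Over the 14 alternatives of scaling, filter, pseudocount, replicate block and left-out libraries, the HES1 value ran from 0.86 to 1.36.

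Among the other targets the libraries of the treatments overlapped. NRARP, a small ankyrin-repeat protein that promotes turnover of the Notch intracellular domain, was at 1.55, 1.96 and 1.95 CPM with blebbistatin and 0.463, 1.71 and 1.23 CPM with DMSO. Here the groups overlapped, since DMSO replicate 2 lay above blebbistatin replicate 1. Its log2 fold change of 0.75 ± 0.43 was 0.30 ± 0.30 without DMSO replicate 1. HEY2, a repressor of the ventricular compact myocardium, was at 12.6, 16.9 and 13.4 CPM with blebbistatin and 12.4, 12.8 and 12.1 CPM with DMSO (log2 fold change 0.14 ± 0.17). Without DMSO replicate 1 the log2 fold change of HEY2 was 0.19 ± 0.18. Blebbistatin replicate 2 was the highest library, and without it the log2 fold change of HEY2 was 0.0056. HEYL, a family member known from vascular smooth muscle, was at 35.9, 39.9 and 40.2 CPM with blebbistatin and 36.3, 35.3 and 32.9 CPM with DMSO, with a log2 fold change of 0.11 ± 0.13. The highest control, DMSO replicate 1, overlapped the lowest treated library. Without it the log2 fold change of HEYL was 0.19 ± 0.12, and its groups no longer overlapped. How many of all genes separate without that library was not counted, so nothing is read from this. HEY1 was at 0.485, 0.0316 and 0 CPM with blebbistatin and 0.0661, 0 and 0.227 CPM with DMSO. It did not pass the filter on low values (0.162 CPM in at least 3 libraries), and no fold change is given for it.

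**Figure D1:**
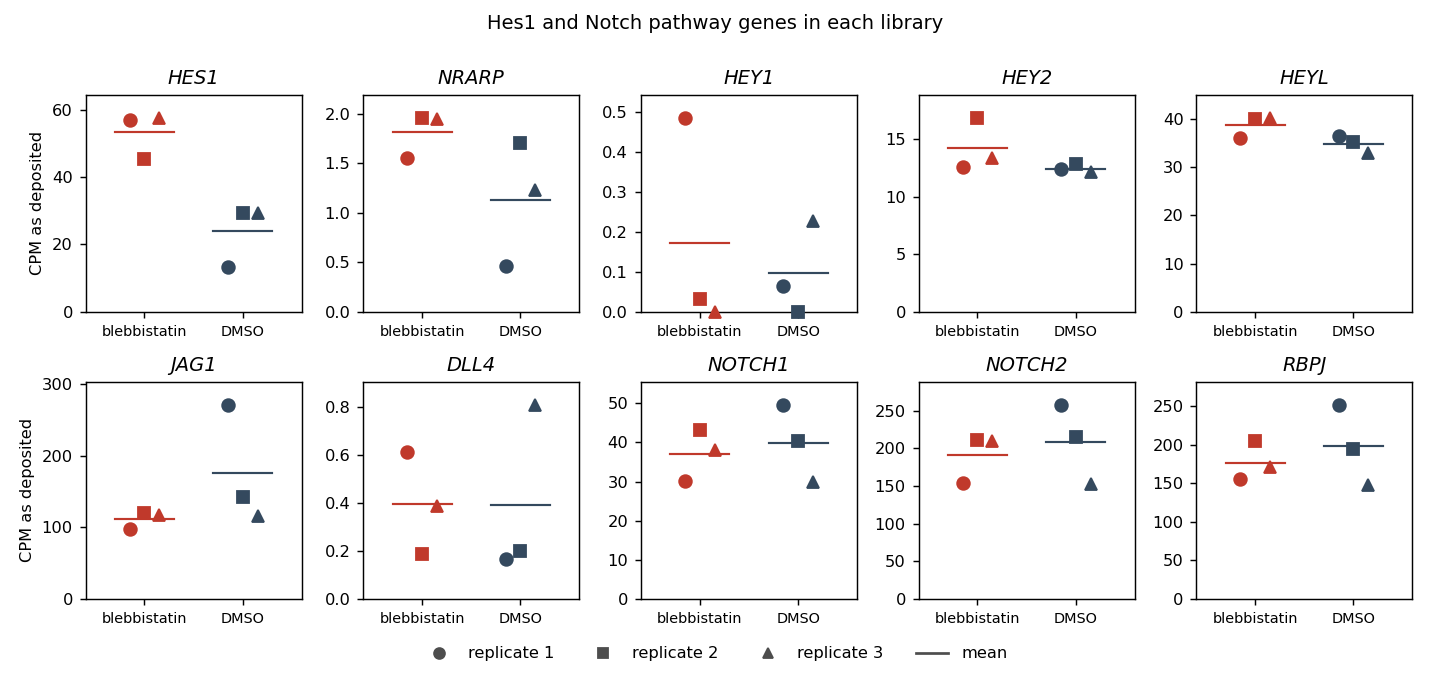
CPM as deposited (y axis, from 0) of the 10 genes in the blebbistatin and DMSO libraries (x axis), with 1 point per library, the marker shape giving the replicate number, and a line at each group's mean. HES1 is the 1 gene whose groups do not overlap, with blebbistatin libraries at 45.4 to 57.5 CPM and DMSO libraries at 13.3 to 29.4 CPM, and JAG1, NOTCH1, NOTCH2 and RBPJ are highest in DMSO replicate 1.

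For both ligands the libraries of the treatments overlapped. JAG1 was at 97.4, 120.4 and 117.2 CPM with blebbistatin and 271.1, 142.4 and 115.5 CPM with DMSO. Its means were 110.3 ± 13.9 CPM with blebbistatin and 182 ± 96.4 CPM with DMSO, and the large control SD came from DMSO replicate 1. The log2 fold change of JAG1 was -0.60 ± 0.33 with all libraries and -0.20 ± 0.15 without DMSO replicate 1. DLL4, the ligand of endothelial sprouting, was at 0.614, 0.190 and 0.389 CPM with blebbistatin and 0.165, 0.201 and 0.810 CPM with DMSO. The lowest and the highest library were both DMSO libraries, and the log2 fold change of 0.13 ± 0.60 took the opposite sign without DMSO replicate 1 (-0.16 ± 0.62). RefSeq (GRCr8) lists 1 gene overlapping DLL4 and 1 overlapping HEYL, neither with a row in the table. The strand of these overlapping genes was not examined, so the values of DLL4 and HEYL are uncertain.

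The 2 receptors and the DNA-binding factor had the same highest and lowest libraries. NOTCH1 was at 30.1, 43.3 and 38.0 CPM with blebbistatin and 49.6, 40.4 and 29.8 CPM with DMSO. NOTCH2 was at 154.3, 210.8 and 210.0 CPM with blebbistatin and 257.6, 215.5 and 152.2 CPM with DMSO. RBPJ, through which all Notch receptors reach DNA, was at 155.4, 205.1 and 170.8 CPM with blebbistatin and 252.0, 195.0 and 148.3 CPM with DMSO. All 3 were highest in DMSO replicate 1 and lowest in DMSO replicate 3, with blebbistatin replicate 1 next to lowest, so the range within the DMSO group spanned the treated group. The log2 fold changes were -0.13 ± 0.25 for NOTCH1, -0.14 ± 0.25 for NOTCH2 and -0.18 ± 0.24 for RBPJ, and without DMSO replicate 1 they were 0.087 ± 0.20, 0.072 ± 0.20 and 0.054 ± 0.17. The table also lists RBPJL and RBPJL2, and how reads matching several genes were counted is not stated.

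**Figure D2:**
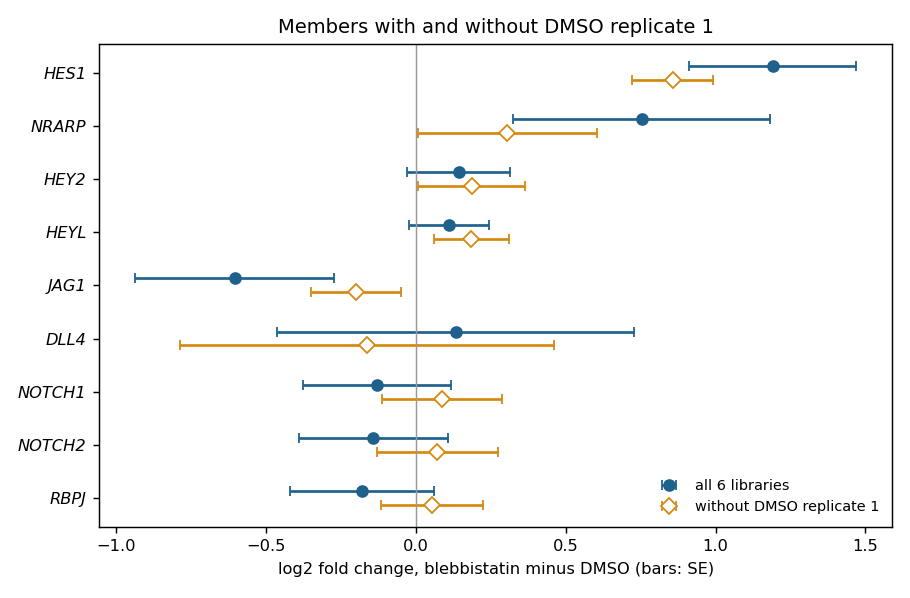
Log2 fold change, blebbistatin minus DMSO (x axis; bars are SE), of the 9 members that passed the filter (y axis), from all 6 libraries (filled circles) and without DMSO replicate 1 (open diamonds). HES1 stays at 0.86 without that library, while NRARP and JAG1 move to 0.30 and -0.20 and the receptors and RBPJ take a small positive sign.

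Of the 9 members that passed the filter, limma called 0 at an adjusted p under 0.05, against 0.0197% of all genes tested (0.00658% called higher and 0.0132% called lower). The groups did not overlap for 1 of the 9, HES1, against 6.10% of all genes tested (3.62% higher and 2.48% lower). Since this comparison was used to choose the genes, nothing is read from these 2 counts. The median log2 fold change was 0.11 over these 9 and 0.0040 over all genes tested. Relative to the average of all others, the log2 level in DMSO replicate 1 was shifted by -1.52 for HES1, -1.53 for NRARP and -0.79 for DLL4, and by 1.33 for JAG1, 0.67 for RBPJ and 0.60 for both NOTCH1 and NOTCH2. For HEY2 and HEYL the difference was 0.015 and 0.11. In the same library the mean shift was -0.98 over 9 macrophage and leukocyte markers, -0.46 over 11 cardiomyocyte markers, -0.13 over 6 epicardial, -0.10 over 11 endothelial, -0.044 over 9 fibroblast and 0.14 over 9 mural cell markers. The cardiomyocyte markers went both ways there, from -2.83 for NPPA, the atrial natriuretic peptide, and -1.33 for MYL2 to 0.83 for MYH7 and 1.00 for RYR2, the calcium release channel. Their summed CPM was highest in that library, where MYH7 alone held 19643.5 of the 28491.5 CPM. The other lists went both ways too. Macrophage markers ran from -2.41 for C1QC to 0.15 for CSF1R, endothelial from -1.02 for CLDN5 to 1.14 for VWF. Mural markers ran from -0.86 for CNN1 to 1.09 for PDGFRB, fibroblast from -0.91 for TCF21 to 0.63 for PDGFRA. Epicardial markers ran from -0.88 for MSLN to 0.89 for KRT19. A list's mean shift therefore does not stand for all its markers. The macrophage list summed to 163 to 182 CPM with blebbistatin and 86.8 to 177 CPM with DMSO, 8 of its 9 genes had a positive log2 fold change, and none was at 0 in all libraries. The mean log2 difference of this list, blebbistatin minus DMSO, was 0.39 with all libraries and 0.079 without DMSO replicate 1. The part of these cell types in the values of the members was not tested.

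A wider list held 71 other pathway genes, 68 of which had a row and 62 passed the filter. MAML3, EP300 and CDK8 are not analysed here. These genes were not chosen by the rule for the 10 members, and limma called 0 of the 62 at an adjusted p under 0.05, with 2 at an unadjusted p under 0.05, where 3 of 15204 genes were called (231 at an unadjusted p under 0.05, or 1.52%). Of the 62, 28 had a positive and 34 a negative log2 fold change, with a median of -0.031 against 0.0040 over all genes. The groups did not overlap for 3 of them (4.84%), which is near the 6.10% of all genes.

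Among the other targets, SNAI1, a zinc finger repressor of epithelial genes, had the lowest p. It was at 43.5, 48.5 and 51.3 CPM with blebbistatin and 24.6, 35.5 and 32.1 CPM with DMSO, so all treated libraries lay above all controls. Its log2 fold change was 0.61 ± 0.15 with an unadjusted p of 0.00425 in limma, and it did not pass after adjustment over all genes (limma adjusted p = 0.991). Without DMSO replicate 1 the value was 0.50. HES7, the repressor of the segmentation clock, was at 0.954, 0.237 and 1.2 CPM with blebbistatin and 0.364, 0.251 and 0.421 CPM with DMSO, and the groups overlapped. Of the other Hes genes, HES3 was listed at 0 in all 6 libraries, HES5 in 5 and HES2 in 4, while HES6 was at 20.8, 11.02 and 16.9 CPM with blebbistatin and 8.03, 14.0 and 20.4 CPM with DMSO. MYC and CCND1, growth genes with many inputs besides Notch, had log2 fold changes of 0.13 ± 0.18 and -0.15 ± 0.14. Relative to the mean of all other libraries, DMSO replicate 1 was shifted by -0.43 for MYC and 0.38 for CCND1. Their values without that library are not given here.

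Of 5 other ligand genes tested, 3 had a positive and 2 a negative fold change. DLK1 and DLK2, ligand-like proteins that lack the domain by which classical ligands bind Notch, had the lowest p of this role. DLK1 was at 7.81, 7.51 and 8.79 CPM with blebbistatin and 1.37, 5.53 and 8.46 CPM with DMSO, and its log2 fold change of 0.94 ± 0.56 was 0.23 without DMSO replicate 1. DLK2 was at 0.372, 0.332 and 0.259 CPM with blebbistatin and was listed at 0, 0.184 and 0.0810 CPM with DMSO, with a log2 fold change of 1.27 ± 0.53 (unadjusted p of 0.0441 and adjusted p = 0.991 in limma). At these levels the CPM added before taking logs matters, and the value of DLK2 ran from 0.28 to 1.63 over the alternatives. DLL3 was listed at 0 in all DMSO libraries and at 0.0647 to 0.243 CPM with blebbistatin, too low to be tested.

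No gene at the remaining steps of the pathway passed the adjusted threshold in limma. The receptor NOTCH3 was at 350.1, 407.9 and 436.3 CPM with blebbistatin and 433.5, 441.5 and 362.5 CPM with DMSO (log2 fold change -0.091 ± 0.16), and NOTCH4 had a value of 0.14 ± 0.23. Over 5 glycosyltransferase genes that modify the receptor, values ran from -0.23 for POFUT1 to 0.18 for MFNG and LFNG. Among the genes of receptor cleavage, ADAM17, a protease that cuts the receptor outside the membrane, had a value of -0.21 ± 0.15. PSENEN, a gamma-secretase subunit, had one of 0.33 ± 0.46. PSENEN was at 46.5, 25.7 and 33.3 CPM with blebbistatin and 11.5, 34.4 and 46.4 CPM with DMSO. Its lowest library was DMSO replicate 1, and its value without that library is not given here. Among 11 genes of ligand and receptor trafficking, DTX2, a ubiquitin ligase of the Deltex family, was at 18.8, 17.6 and 19.6 CPM with blebbistatin and 13.6, 15.9 and 16.2 CPM with DMSO. Its groups did not overlap, but its log2 fold change of 0.25 ± 0.13 did not pass (limma adjusted p = 0.991). FBXW7, which marks the Notch intracellular domain for degradation, had a value of -0.28 ± 0.18. The coactivators ran from -0.30 ± 0.28 for MAML2, a Mastermind gene, to 0.22 ± 0.19 for KAT2B, a histone acetyltransferase listed as AABR07066180.1. Of 16 corepressor genes, 5 had a positive and 11 a negative value, from -0.31 ± 0.22 for TLE1 to 0.21 ± 0.16 for CTBP1. Several of these values rested on DMSO replicate 1: without it NOTCH3 was at -0.0079, NOTCH4 at 0.023, POFUT1 at -0.0010, ADAM17 at -0.063, FBXW7 at -0.16, MAML2 at 0.033, KAT2B at 0.10 and CTBP1 at 0.064. LFNG was at 0.052 without blebbistatin replicate 3, and TLE1 at -0.20 without DMSO replicate 2.

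**Figure D3:**
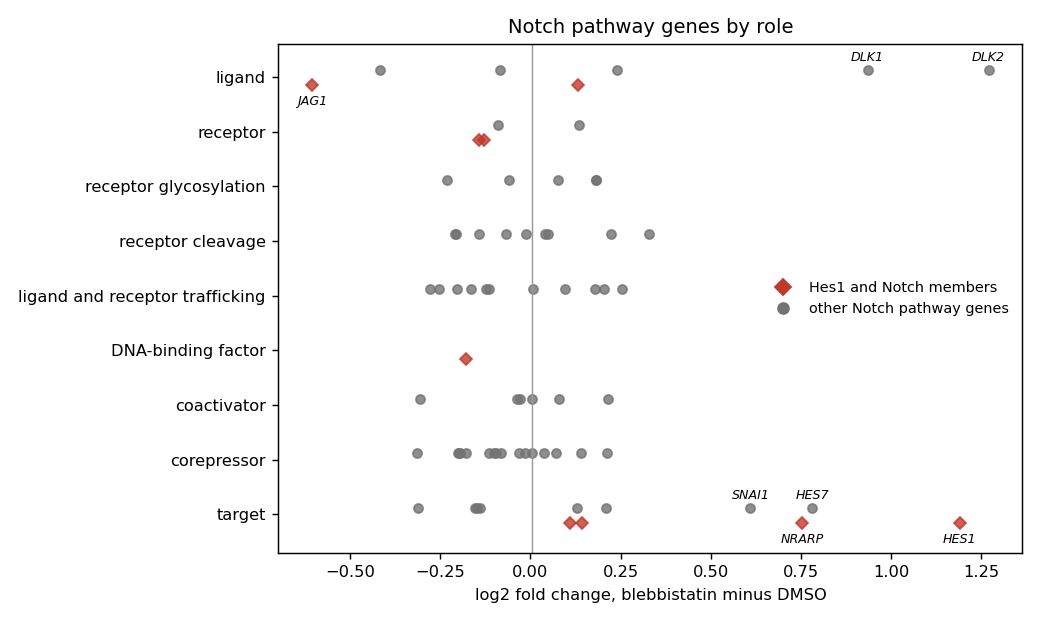
Log2 fold change, blebbistatin minus DMSO (x axis), of the 9 members that passed the filter (red diamonds) and 62 other Notch pathway genes (grey circles), by role (y axis), with a line at the median of all genes tested. HES1 at 1.19 and DLK2 at 1.27 are farthest to the right and JAG1 at -0.60 farthest to the left, and none of the 62 other genes passed the adjusted threshold.

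Genes whose level moved across the 6 libraries most like HES1 were sought among 10844 genes with a RefSeq symbol and a mean log2 level of at least 1. The measure was the root mean square difference between centred log2 profiles, whose median over these genes was 0.71. The 5 closest were DDIT4 (0.20), an inhibitor of mTOR complex signalling, NR2F1 (0.28), an orphan nuclear receptor, OSGIN1 (0.28), an oxidative stress response gene, BAMBI (0.29), a decoy receptor of TGF-beta family signals, and DUSP28 (0.30), an atypical dual-specificity phosphatase. DDIT4 was at 47.8, 43.0 and 51.6 CPM with blebbistatin and 16.7, 30.8 and 33.3 CPM with DMSO, a log2 fold change of 0.84 ± 0.23. All 5 were lowest in DMSO replicate 1, and the groups overlapped for DUSP28 alone. BAMBI was at 23.4, 20.9 and 21.7 CPM with blebbistatin and 9.03, 15.9 and 16.7 CPM with DMSO. These genes were chosen for their likeness to HES1, so their differences are a description.

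**Figure D4:**
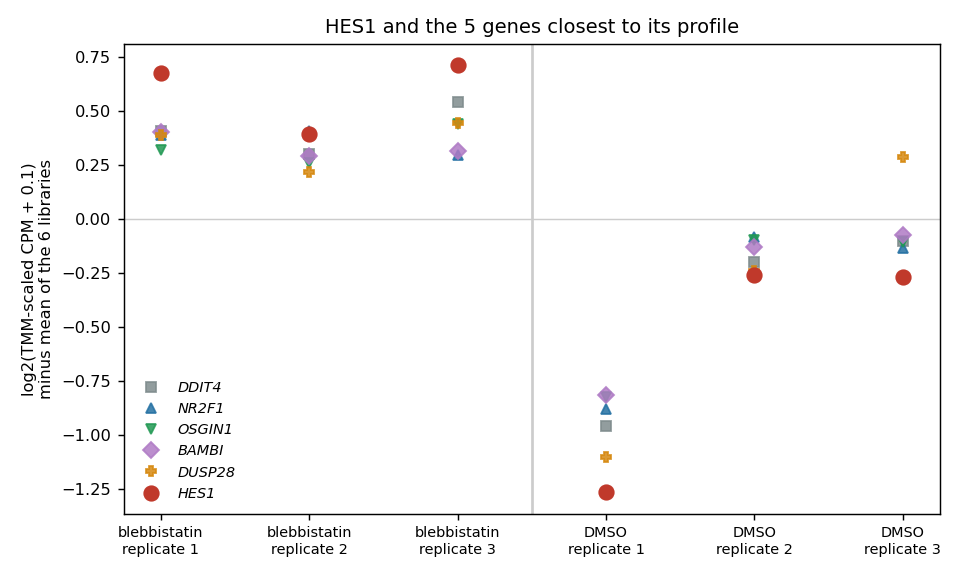
Log2(TMM-scaled CPM + 0.1) minus the gene's mean over the 6 libraries (y axis) in each library (x axis, blebbistatin left of the line and DMSO right of it), for HES1 (red circles) and the 5 genes closest to its profile. All 6 genes are lowest in DMSO replicate 1, and HES1 has the largest log2 fold change of the 6, at 1.19.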

How the data were processed

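RNA of 6 libraries was sequenced, and the authors deposited 1 table of CPM for 28909 genes, whose columns share 1 total. Tools listed in the submitters' processing notes include edgeR 3.20.9, HISAT2 2.1.0 and StringTie 1.3.4, with build rn6; which of them made the table is not given in the sources used here, nor are its gene annotation and strandedness.

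From these values, limma 3.58.1 in R 4.3.3 (trend and robust settings, two-sided, no block) was fitted to TMM-adjusted CPM, as log2 after adding 0.1. It covered the 15204 genes with at least 0.162 CPM (10 steps at the median step) in at least 3 libraries, with Benjamini-Hochberg adjustment over all of them and a threshold of 0.05. The added 0.1 understates changes of low genes. TMM factors ran from 0.928 to 1.03. The fit was tested on simulated data, the outcome of which is not reported here and on which no result rests. Each mean ± SD was taken after TMM scaling, whereas per-library CPM are unscaled. The planned count test was not run, because whole reads could not be recovered.

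The members, lists and tests were chosen with earlier results of these data known. Named genes are the 10 members, the 2 other Notch genes per role with the lowest p, any past the threshold, and the 5 genes closest to HES1; 1 gene that this rule names is not reported here. Other genes named, among them HES2, HES3, HES5, HES6, MYC, CCND1, DLL3, MFNG and PSENEN, were chosen after their values were seen. TLE5 (AES) and KAT2B were matched by RefSeq synonyms. Between 0.0855% and 0.283% of tested genes had equal values in a pair of libraries, so no library duplicates another. RefSeq tables of GRCr8 served for names, overlapping genes and promoter sequences, and no coordinates were converted between builds.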

Additional observations from a re-analysis of the deposited data

How the results depend on the processing

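Limits: with 3 libraries per group, DMSO replicate 1 apart from the rest and the depth in reads not known, small differences of the low genes HEY1, DLL4 and NRARP were not detectable here. The limit also holds at higher levels. SNAI1, at 24.6 to 51.3 CPM with a log2 fold change of 0.61 ± 0.15, had a limma adjusted p of 0.991. A gene that was not called is therefore not shown to be unchanged. The 0 other Notch genes called stayed at 0 in limma under all 15 alternatives run (1 to 3 at an unadjusted p under 0.05). The 3 genes called over the whole table numbered 2 without a filter and with 0.5 or 1 CPM added, 4 at an adjusted p under 0.1, and 3 to 6 with each library left out in turn, 6 without DMSO replicate 1 and 6 without DMSO replicate 3. With the replicate block 2 were called. After subtracting group means, libraries with the same number correlated at -0.29, 0.054 and -0.092. No blebbistatin library correlated best with the DMSO library of its own number, so the numbers are not taken to pair the libraries. No alternative called a member, from which nothing is read, since the members were chosen with this comparison in view. With libraries left out in turn, MAML2 ran from -0.52 to 0.033, positive without DMSO replicate 1. NOTCH3 ran from -0.21 to 0.0080, positive without blebbistatin replicate 1. Over the alternatives, 220 of 222 values of the other genes named by the rule on lowest p kept their sign. Genes named outside that rule, such as MYC, CCND1, MFNG and PSENEN, are not among these values. Among the members, leaving out libraries in turn moved NRARP between 0.30 and 1.09 and JAG1 between -0.88 and -0.20, and signs changed for DLL4 (-0.17 to 0.68), NOTCH1 (-0.35 to 0.087), NOTCH2 (-0.38 to 0.072) and RBPJ (-0.40 to 0.054); the cause was not tested.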

Other observations

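The CPM values were regular. In each library 99.1% to 99.2% of values above 0 were whole multiples, within 0.02, of the library's step. The step was set as the commonest value above 0 divided by 4, so that value lies at 4 steps by definition. It held 253 to 426 genes of a library, against 120 to 193 genes at 3 steps and 139 to 234 at 5 steps. Another peak stood at 8 steps (185 to 232 genes), against 71 to 103 at 7 steps. A step is therefore not taken to be 1 read, and the depth of the libraries in reads is not known.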
